A study of Mus musculus with 4 samples.

Results

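The response of cultured mouse cerebral cells to interferon-gamma (IFNγ) was measured in the absence and in the presence of benztropine, an anticholinergic drug. IFNγ had been added for 48 h in 2 of the 4 groups, alone or together with benztropine, and the response of a gene is the mean of these 2 arrays minus the mean of the other 2. It is also given as a pair of differences that share no array: IFNγ minus control, called the control background here, and both agents minus benztropine, called the benztropine background. The genes described are those of 14545 probe sets that carry a gene symbol and lie above background, of 25341 probe sets with a symbol and 41345 in all. Background was set from 1400 probe sets for odorant and pheromone receptors (the Olfr, Vmn1r and Vmn2r genes), which are silent in most tissues, and the mean log2 signal over the 4 arrays had to exceed their 95th percentile (6.68). At that edge, *Bag4* (6.6811) was just inside and *Kif20b* (6.6807) just outside.

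The 4 arrays, 1 per group, held RNA of cells from the brain of 3-day-old C3H/He pups, labelled as primary astrocytes. The groups were control with no agent, IFNγ at 250 IU/mL, benztropine at 2.0 µM, and IFNγ with benztropine at these doses. RNA of 3 cultures was mixed in equal amounts before each hybridisation, so the spread between cultures cannot be seen. The errors below come from how well the 2 backgrounds gave the same difference, drawn toward a variance shared by all probe sets with a symbol. That shared variance weighed 3.79 degrees of freedom against 1 of the gene's own. Where the backgrounds agreed closely, as for *Gbp8*, an SE of 0.07 therefore mostly reflects the shared variance. With 2 arrays on each side, an exact permutation test (two-sided) of a gene cannot go below p = 0.333, so the tests are those of limma, fitted over all probe sets with a symbol. The median log2 signal of the arrays lay between 6.65 and 6.68, and 57.2% to 58.4% of the named probe sets exceeded the background of their own array. The cultures had been freed of loosely attached cells by shaking. Of 12 astrocyte markers 11 were above background, with *Aqp4*, the water channel of astrocytes, at 12.47 in control and *Gjb6*, a gap junction gene, the exception at 5.24. All 12 measured markers of microglia and macrophages were above background too, as were 8 of 9 for the oligodendrocyte lineage, 5 of 7 for fibroblasts and leptomeninges, 4 of 5 for ependyma and 4 of 8 for neurons, against 2 of 6 for endothelium and 1 of 6 for T and NK cells. In such bulk RNA, a change in the number of cells of a type and a change in RNA per cell cannot be told apart.

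IFNγ is a cytokine of T and NK cells that binds a receptor of the chains IFNGR1 and IFNGR2 and activates the kinases JAK1 and JAK2. The signal reaches genes through a DNA element called GAS (gamma-activated site). Among the genes it induces is *Irf1*, whose protein binds a further element, the ISRE (interferon-stimulated response element), so that a later wave of genes follows. In astrocytes and microglia this cascade is known for antigen presentation, chemokines that attract T cells, and defence against intracellular microbes.

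The response was large, and its called and larger changes were mostly upward and similar in size in both backgrounds. With changes of any size counted, 25.8% of the 14545 probe sets were higher and 37.3% lower in both backgrounds. limma called 203 probe sets higher with IFNγ at an adjusted p under 0.05, 1.4% of the 14545, and 9 lower (0.0619%). These counts depend on the fit. They were 484 and 171 with a variance prior that follows the signal level, 464 and 170 when only probe sets above background were fitted, 13 and 0 with unnamed probe sets kept, and 103 to 152 and 2 to 6 with 1 array left out. Of the 203, 175 carried 1 symbol and stood for 174 genes, and 28 carried several symbols. With signals below background set to the background level, the rise exceeded 2-fold in 130 probe sets, 4-fold in 42, 8-fold in 22 and 32-fold in 2, whereas 4 were lower past 2-fold and 0 past 4-fold. The rises held guanylate-binding and immunity-related GTPases, MHC molecules and the proteins that load them, chemokines, and proteins that detect or restrict viruses. Among the falls were *Glycam1*, *Dcn* and *Nav3*.

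Across the 14545 probe sets the differences of the 2 backgrounds had a Pearson correlation of 0.842, given as a description, since probe sets of the same arrays are not independent. Past 1.5-fold, 286 probe sets (1.97%) were higher in the control background and 234 (1.61%) in the benztropine background, and 210 were higher in both. For lower values the counts were 20 (0.138%), 31 (0.213%) and 9, and no probe set passed 1.5-fold in opposite directions. The median over the called rises was 1.28 on the log2 scale in the control background and 1.18 in the benztropine background, and 149 of the 203 had the larger difference in the control background. The medians over all 14545 were −0.00052 and −0.039. Of the 203, 25 were below background on both arrays without IFNγ, so their folds are lower bounds, written "at least" and computed against the background level of each array. These 25 passed the filter on the mean through their IFNγ arrays. Among the named rises, 45 of 59 of at least 2-fold were called whichever array was left out, but none of the 16 smaller ones. These fits set 2 arrays against 1 and have no benztropine term. Their residual comes from the side with 2 arrays, which differ by benztropine, and the lone array is assumed to vary likewise, so a lost call can come from either change.

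**Figure D1:**
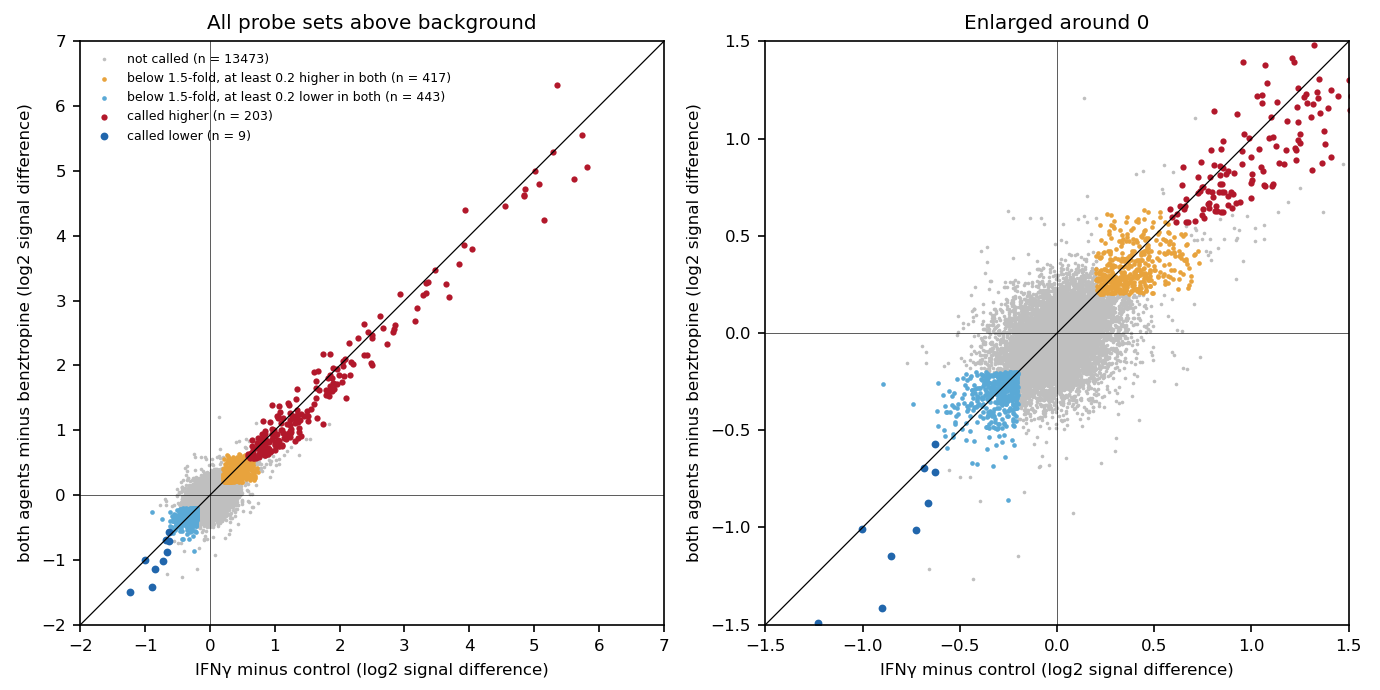
Each point is a probe set above background, placed by its log2 difference in the control background (horizontal) and in the benztropine background (vertical), with equality as the diagonal and the range around 0 enlarged on the right. The 203 probe sets called higher (red) follow the diagonal over the whole range, the 9 called lower (dark blue) lie mostly under it, and the 417 and 443 with small differences in both backgrounds (orange and light blue) extend the cloud along it.

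The letters of both elements can be seen in promoters of some responding genes. RefSeq windows of assembly GRCm38.p6, running from 250 bases before to 50 bases after a gene's start, are printed 5′ to 3′ on the gene's strand for 6 genes whose windows hold such letters and whose differences ran from 0.41 (*B2m*) to 3.92 (*Igtp*). Most genes called higher that had a window hold no ISRE core, so the printed ones are not typical. The 6 printed genes are *Irf1* (chr11:53769764-53770063, plus strand), the GTPase genes *Igtp* (chr11:58199306-58199605, plus strand) and *Gbp5* (chr3:142496684-142496983, plus strand), the antiviral gene *Isg15* (chr4:156200769-156201068, minus strand), and a pair of genes whose difference stayed below 1.5-fold, *B2m* (chr2:122147437-122147736, plus strand) and *Socs1* (chr16:10785487-10785786, minus strand). Capitals mark matches to the ISRE core (GAAA, any 2 bases, GAAA) on either strand and to the GAS core (TTC, any 3 bases, GAA), which reads the same on both strands. *Irf1* has 2 windows in the table, and the one with more matches is shown.
Irf1: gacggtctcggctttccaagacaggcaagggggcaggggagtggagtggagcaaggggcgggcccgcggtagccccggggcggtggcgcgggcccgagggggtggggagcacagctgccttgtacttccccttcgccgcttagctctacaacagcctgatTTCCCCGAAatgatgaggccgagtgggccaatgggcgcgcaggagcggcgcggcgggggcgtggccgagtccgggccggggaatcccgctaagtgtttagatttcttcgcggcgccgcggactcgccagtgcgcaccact
Igtp: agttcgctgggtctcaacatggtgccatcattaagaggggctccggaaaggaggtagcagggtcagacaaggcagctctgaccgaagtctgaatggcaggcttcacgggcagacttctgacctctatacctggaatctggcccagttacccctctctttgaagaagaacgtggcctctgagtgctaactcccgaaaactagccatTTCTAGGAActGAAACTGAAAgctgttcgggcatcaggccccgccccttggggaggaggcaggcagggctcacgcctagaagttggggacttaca
Gbp5: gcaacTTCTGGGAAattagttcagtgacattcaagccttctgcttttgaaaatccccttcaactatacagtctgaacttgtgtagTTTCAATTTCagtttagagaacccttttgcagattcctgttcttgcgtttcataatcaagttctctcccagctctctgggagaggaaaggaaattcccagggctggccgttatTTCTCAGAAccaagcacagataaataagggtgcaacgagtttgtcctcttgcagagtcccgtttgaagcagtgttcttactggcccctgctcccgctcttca
Isg15: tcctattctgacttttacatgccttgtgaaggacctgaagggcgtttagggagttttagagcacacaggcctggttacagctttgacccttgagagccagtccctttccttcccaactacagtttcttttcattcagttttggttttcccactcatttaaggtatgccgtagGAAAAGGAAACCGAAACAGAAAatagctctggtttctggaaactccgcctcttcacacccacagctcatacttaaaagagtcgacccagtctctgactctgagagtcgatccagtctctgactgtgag
B2m: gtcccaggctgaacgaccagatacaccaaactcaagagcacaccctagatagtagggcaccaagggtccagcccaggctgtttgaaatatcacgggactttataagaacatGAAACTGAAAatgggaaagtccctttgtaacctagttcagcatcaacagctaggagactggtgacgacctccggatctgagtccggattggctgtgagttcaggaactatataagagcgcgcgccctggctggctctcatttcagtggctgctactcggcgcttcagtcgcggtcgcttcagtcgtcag
Socs1: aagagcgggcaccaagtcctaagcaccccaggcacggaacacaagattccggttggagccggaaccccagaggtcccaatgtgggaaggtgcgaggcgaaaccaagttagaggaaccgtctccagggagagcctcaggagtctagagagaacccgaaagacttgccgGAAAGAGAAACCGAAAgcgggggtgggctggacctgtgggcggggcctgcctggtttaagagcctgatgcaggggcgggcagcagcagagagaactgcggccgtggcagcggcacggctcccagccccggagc
The match in *Irf1* is a GAS core starting 90 bases before the gene's start. In *Igtp* a GAS core and an ISRE core stand next to each other, starting 45 and 34 bases before it, and *Gbp5* has an ISRE core and 2 GAS cores. *Gbp5* was below background on both arrays without IFNγ and had log2 signals of 8.62 and 8.53 with it, a rise of at least 3.75-fold. *Isg15* has 3 overlapping ISRE cores and *Socs1* has 2, while *B2m* has 1 that starts 139 bases before the gene's start. A match describes letters only and shows no binding.

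Among genes with a window, the ISRE letters were most frequent in the class of rises of 4-fold or more. The largest rise with a window was that of *Igtp* (3.92). Larger ones, such as those of *Gm4841*, *Gbp4* and *H2-Ab1*, had none and were not searched. Windows were found for 123 of the 174 genes called higher, and 37 of them (30.1%) held an ISRE core, against 382 of 10206 genes above background (3.74%) and 3.44% of all 32851 windows in the table. The share was 48.0% (12 of 25 genes with a window, of 42 in the class) for rises of 4-fold or more. It was 24.5% (12 of 49) for those of 2-fold to 4-fold and 26.5% (13 of 49) below 2-fold. Genes below 1.5-fold that were at least 0.2 higher in both backgrounds held it in 9.97% (29 of 291), and those at least 0.2 lower in both in 3.69% (11 of 298). The GAS core was found in 20% (5 of 25), 16.3% (8 of 49) and 8.16% (4 of 49) of the 3 classes of rises, in 12.4% and 9.4% of those with small differences up and down, in 8.13% over all genes above background and 8.3% of all windows. Of the 9 genes called lower, 5 had a window, with an ISRE core in 0 and a GAS core in 3.

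**Figure D2:**
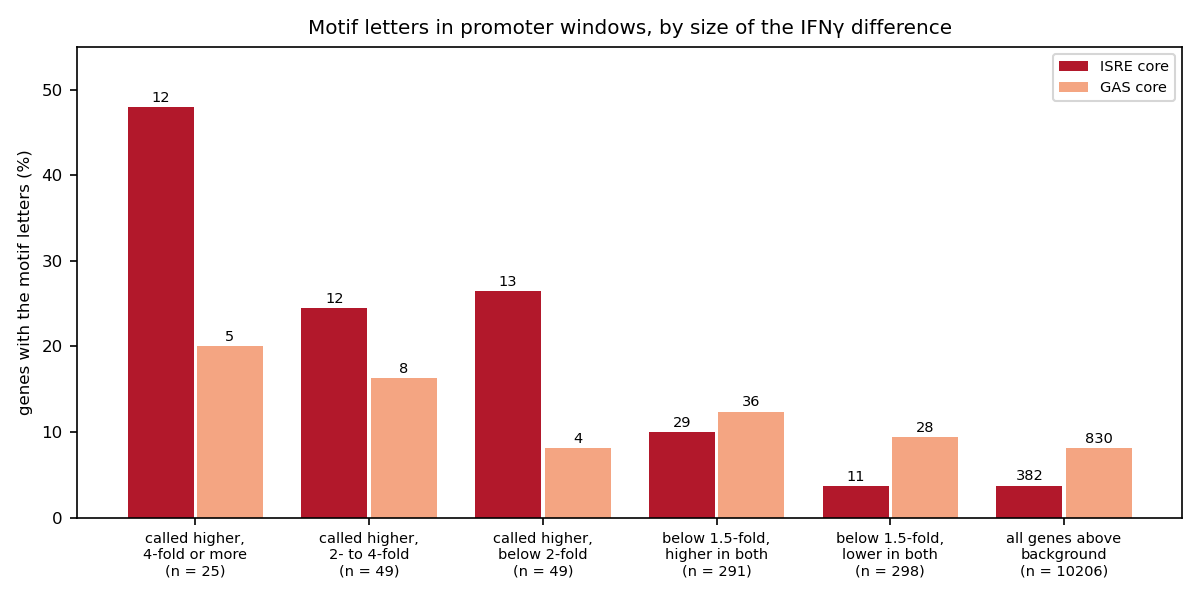
Bars give the share of genes (%) whose promoter window holds the ISRE core (dark) or the GAS core (light), for classes of the IFNγ difference, with the number of genes above each bar and the number with a window under each class. The ISRE share is 48.0% for rises of 4-fold or more with a window and 3.74% over all genes above background with one.

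Upstream, the genes of the receptor and its kinases were present and gave differences of at most 0.16 on the log2 scale, while transcription factors of the interferon response rose. *Irf1* had log2 signals of 7.60 in control and 7.47 with benztropine, against 9.34 with IFNγ and 9.64 with both agents, and rose 3.88-fold (mean log2 difference 1.96 ± 0.12, SE, n = 2 arrays per side, limma adjusted p = 0.0061). Both IFNγ arrays lay above both others. *Stat2*, which acts with IRF9 in a complex that binds the ISRE, rose 3.21-fold, *Irf7*, a factor that amplifies interferon induction, 2.26-fold, and *Irf9* 1.65-fold. The call of *Irf9* was lost without any 1 of the 4 arrays (adjusted p from 0.0687 to 0.173) and that of *Irf7* without either IFNγ array (up to 0.119). *Irf8*, a factor of macrophages, also passed the test, at 0.61 on the log2 scale. These 5 are the called members among 25 receptors, kinases, STATs and IRFs above background (median difference 0.16), against 1.4% of all probe sets. *Ifngr1* had signals from 10.87 to 11.03 on the 4 arrays (difference 0.11, limma adjusted p = 0.586), *Ifngr2* differed by 0.10, *Jak1* by 0.01 and *Jak2* by 0.16. The feedback inhibitor *Socs1* was higher by 0.43 in the control background and 0.50 in the benztropine background (adjusted p = 0.105), whereas *Socs3*, an inhibitor of interleukin-6 signalling, was lower by 0.14 and 0.13.

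Among the largest rises were those of GTPases that gather on the vacuoles of intracellular microbes. All 16 members of this list above background were called higher, against 1.4% of all probe sets, with a median difference of 3.58. It was 3.55 with the 4 members below background without IFNγ at their lower bounds. These 4 passed the filter on the mean through their IFNγ arrays, so the count of 16 depends in part on the response itself. Of the 18 measured, *Gbp6* and *Gm12185* lay outside the filter, with limma adjusted p of 0.0048 and 0.0998. *Gbp8*, a guanylate-binding protein, had log2 signals of 7.35 in control, 7.43 with benztropine, 12.35 with IFNγ and 12.43 with both agents, a rise of 32.1-fold (5.01 ± 0.07, SE, adjusted p = 0.0002). *Gbp4* went from 5.67 and 6.49 without IFNγ, both below background, to 11.49 and 11.55, at least 28.9-fold, and *Gbp11* from 6.91 and 7.28 to 11.98 and 12.08, 30.7-fold. RefSeq annotates *Gbp11* as a transcribed pseudogene. *Igtp*, an immunity-related GTPase, had 7.84, 8.39, 11.88 and 12.19 on the same 4 arrays, a rise of 15.1-fold (3.92 ± 0.09). For these genes the arrays with and without IFNγ lay several log2 units apart, and the 2 arrays of a side within 1 unit. *Gm4841*, a member of the same list, was at 4.90 and 4.05 without IFNγ, far below background, and rose at least 12.5-fold. *F830016B08Rik*, listed in no group, was next to *Iigp1* on chromosome 18 in GRCm38.p6 and rose at least 21.8-fold. Probe sets of near-identical copies can bind each other's transcripts, so the split of the signal between copies is uncertain.

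**Figure D3:**
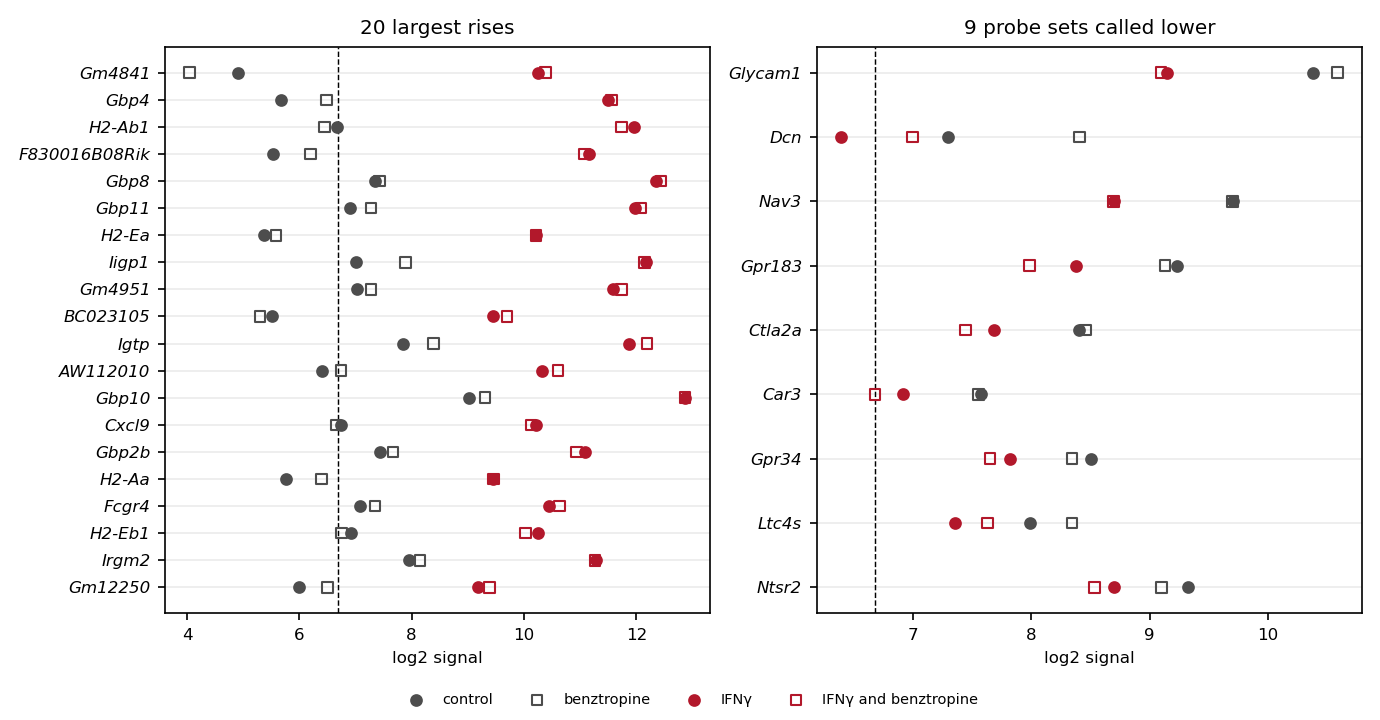
Log2 signals on the 4 arrays for the 20 probe sets of 1 symbol with the largest fitted rises (left) and the 9 called lower (right), with circles for cultures without benztropine, squares for those with it, red for IFNγ, grey for no IFNγ, and the background of 6.68 as a dashed line. On the left every red symbol lies at 9.19 or higher and every grey one at 9.31 or lower, and in each row of either panel the red and grey symbols do not overlap.

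Many called rises lay next to each other in the genome. In the gene order of GRCm38.p6, 65 of the 174 called genes (37.4%) had a called rise as a direct neighbour among the genes measured above background, whereas 2.49% of all such genes lay beside one. The longest runs had 5 genes each. They were *Ifi209* to *Ifi205* on chromosome 1, *Gbp8* to *Gbp11* on chromosome 5, *H2-DMa* to *Tap2* on chromosome 17 and *Gm4951* to *BC023105* on chromosome 18. Runs of 4 genes were *H2-Ab1* to *H2-Ea* on chromosome 17 and *Gbp5* to *Gbp2b* on chromosome 3. Chromosome 17, which carries the MHC, had the highest share of called rises (20 of 668 members, 2.99%), and chromosome X had 1 of 423.

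Genes of antigen presentation rose at several steps, from the peptides to the molecules that show them. For MHC class II, 6 of 13 members were called higher, against 1.4% of all probe sets, and 3 of the 6 passed the filter through their IFNγ arrays. *H2-Ab1*, a class II beta chain, had log2 signals of 6.68 in control and 6.44 with benztropine, below background, and 11.96 with IFNγ and 11.73 with both agents. The rise was at least 36.2-fold (adjusted p = 0.0002). *H2-Eb1* rose 9.90-fold, *H2-Ea* at least 11.7-fold and the alpha chain gene *H2-Aa* at least 6.90-fold, and *Ciita*, the master regulator of class II genes, by 0.83 on the log2 scale. RefSeq annotates *H2-Ea* as a transcribed pseudogene. The RFX factors that bind class II promoters, *Rfx5*, *Rfxap* and *Rfxank*, differed by 0.04, −0.06 and −0.02. *Ctss*, a cathepsin that trims the class II invariant chain, stood at 12.76 and 12.73 without IFNγ and at 13.15 on both IFNγ arrays (0.40, adjusted p = 0.139), and *Ifi30*, a thiol reductase of the same pathway, was higher by 0.52. *Cd74*, the invariant chain, was not analysed here.

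For MHC class I, 7 of 10 members were called higher, against 1.4% of all probe sets, with a median of 1.15. The heavy chain genes *H2-Q4* (8.08-fold), *H2-K1* (5.55-fold) and *H2-T23* (4.91-fold) rose, as did *Nlrc5*, the class I counterpart of *Ciita* (at least 3.73-fold). *Nlrc5*, among the 7, passed the filter through its IFNγ arrays. *H2-K1* had signals of 9.35 and 9.43 without IFNγ and of 11.78 and 11.94 with it. *B2m*, the light chain, stood at 13.10 on both arrays without IFNγ and at 13.50 and 13.52 with it, and its difference was 0.41 (adjusted p = 0.133). Of 15 genes that make or load the peptides 9 were called higher, with a median of 0.80. The transporter *Tap1* rose 4.33-fold and the immunoproteasome subunits *Psmb9*, *Psmb10* and *Psmb8* 3.82-fold, 3.21-fold and 3.17-fold. *Psme1*, a subunit of the proteasome activator PA28, rose by 0.80 on the log2 scale, while *Psme2*, its partner, was lower by 0.38 and 0.21 in the 2 backgrounds. *Calr* and *Canx*, general chaperones of the endoplasmic reticulum, differed by 0.07. Of 12 constitutive subunits of the proteasome core and 17 of its regulatory particle none was called, with medians of 0.10 and 0.02, and *Psma2* had the largest difference among them (0.26). The call of *H2-T23* was lost without control, IFNγ or both agents (adjusted p up to 0.175). *Tapbp* was measured by a pair of probe sets that disagreed, at 0.91 and −0.06.

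Antiviral genes rose in part. Of 20 effectors above background 9 were called higher, with a median of 0.66. Of 11 nucleic acid sensors 5 were called, with a median of 0.58, against 1.4% of all probe sets for either list. *Ifi205*, among these 5, was below background on both arrays without IFNγ and passed the filter through its IFNγ arrays. *Zbp1*, a sensor of left-handed nucleic acid, had signals of 7.42 and 7.90 without IFNγ and of 9.48 and 9.74 with it, a rise of 3.87-fold (1.95 ± 0.09, adjusted p = 0.0023). *Ifi204*, a DNA-binding protein, rose 4.27-fold, *Oasl2* and *Ifit1*, which act on viral RNA or its translation, 3.47-fold and 2.67-fold, and *Bst2*, which tethers budding virions, 2.81-fold. *Isg15*, a ubiquitin-like protein, stood at 6.91 in control, 7.14 with benztropine, 7.87 with IFNγ and 8.54 with both agents (1.18 ± 0.12, adjusted p = 0.0323). Its IFNγ arrays were above the others but far apart from each other, and the call was lost without control (adjusted p = 0.508), benztropine (0.316) or both agents (0.119). *Uba7* and *Herc6*, the enzymes that attach ISG15 in mice, rose 2.31-fold and 2.36-fold. Of 18 genes of ubiquitin and ISG15 conjugation 8 were called higher, against 1.4% of all probe sets. All 18 were higher in both backgrounds, against 25.8% of all probe sets. *Trim34a*, among the 8, was below background on both arrays without IFNγ and passed the filter through its IFNγ arrays. *Ifit3*, *Oas3* and *Ifitm2* were among the effectors that were not called, at 0.09, 0.21 and −0.11. The calls of *Oasl2* and *Ifit1* were lost without either IFNγ array (adjusted p up to 0.199 and 0.146), that of *Bst2* without control or benztropine (up to 0.191) and that of *Ifi204* without control (0.0518).

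Chemokines that act on the receptor CXCR3 of T cells were among the rises. *Cxcl9* had log2 signals of 6.74 in control, 6.65 with benztropine, 10.21 with IFNγ and 10.13 with both agents, an 11.1-fold rise (3.47 ± 0.07, adjusted p = 0.000289). Its neighbours *Cxcl10* and *Cxcl11* rose by 1.79 and 1.28 on the log2 scale. The monocyte and T cell attractants *Ccl5* (6.17-fold), *Ccl12* (4.33-fold) and *Ccl2* (1.25 on the log2 scale), and *Cxcl13*, which attracts B cells (4.01-fold), rose as well. In all, 8 of 16 chemokines above background were called higher, against 1.4% of all probe sets. *Ccl3* and *Ccl4* differed by −0.07 and 0.14, and *Ccl9* was lower by 0.56 and 0.71 (adjusted p = 0.0549). Of 13 cytokines 5 were called, against 1.4% of all probe sets. Among them were *Il18bp*, a soluble antagonist of interleukin-18 (3.12-fold), *Tnf* (1.99-fold), *Il1b* (at least 1.84-fold) and *Tnfsf13b*, the B cell factor BAFF (1.70-fold). *Il1b* was below background on both arrays without IFNγ and passed the filter through its IFNγ arrays. The calls of *Tnf* and *Tnfsf13b* were lost without control, benztropine or both agents, that of *Tnf* also without IFNγ, and that of *Il1b* without benztropine or both agents (adjusted p up to 0.252, 0.162 and 0.0792).

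In other defence groups a minority of members was called, against 1.4% of all probe sets, but more were higher in both backgrounds. The latter were 9 of 12 complement genes, 15 of 17 of cell death, 8 of 10 PARP genes and 12 of 13 of co-stimulation and adhesion, against 25.8% of all probe sets. Of 12 complement genes above background, *Serping1*, the inhibitor of C1 esterase, was the called member (4.18-fold, 2.06 ± 0.07), while the 3 chains of C1q were higher by 0.47 to 0.52 and *C4b* by 0.67 without a call. In the cell death list 6 of 17 were called, among them *Mlkl*, the executor of necroptosis (3.15-fold), and the inflammatory caspases *Casp1* (2.29-fold) and *Casp4* (1.99-fold). *Gsdmd*, the pore protein that these caspases cut, was called by 1 of its probe sets (0.855), and another differed by 0.13. Of 10 PARP genes 4 were called higher, *Parp14*, *Parp9*, *Parp12* and *Parp11*, by 0.85 to 1.16. The checkpoint ligand *Cd274* (PD-L1) had signals of 7.12 and 7.45 without IFNγ and of 9.94 and 9.96 with it, a 6.35-fold rise, and *Cd86*, a ligand that co-stimulates T cells, rose 1.88-fold, whereas *Cd40*, a receptor with that role, differed by −0.02. *Acod1*, which makes itaconate, rose at least 3.54-fold and *Wars*, the tryptophanyl-tRNA synthetase, 2.23-fold. No other of the 18 aminoacyl-tRNA synthetases was called, and *Kars* had the next difference (0.29). The calls of *Casp4*, *Parp14*, *Parp12* and *Cd86* were lost without control, IFNγ or both agents (adjusted p up to 0.138), that of *Casp1* without control or both agents (up to 0.0825), that of *Wars* without control (0.0583) and that of *Parp11* without any 1 array (up to 0.182).

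Of the 174 genes called higher, 104 were in a list and 70 in none. The latter are named after their values were seen. *AW112010*, a long noncoding transcript, rose 14.8-fold, *Dnase1l3*, a secreted DNase, 5.10-fold, *Fgl2*, a fibrinogen-like prothrombinase, 3.88-fold, *Tgm2*, a transglutaminase, 2.98-fold and *Nampt*, the rate-limiting enzyme of NAD salvage, 2.15-fold. All 3 members of the Slamf family above background were higher in both backgrounds, against 25.8% of all probe sets. Of the 3, 2 were called, *Slamf7* (at least 2.90-fold) and *Slamf8* (2.48-fold), against 1.4% of all probe sets. *Slamf7* was below background on both arrays without IFNγ and passed the filter through its IFNγ arrays, so these counts depend in part on the response itself. Among lectin receptors of myeloid cells *Clec4a1* (1.75), *Clec4a3* (1.14) and *Clec12a* (0.84) rose. Of 129 microRNA genes above background none was called, where 1.4% of all probe sets were called higher. *Ddx39b*, an RNA helicase gene, rose by 1.75 in 1 probe set only, and the others above background differed by −0.15 and 0.10.

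Many of these genes belong to myeloid cells, so the markers of microglia and macrophages are given beside them. The summed linear signal of the 12 measured markers, on the log2 scale, was 14.26 in control, 14.38 with benztropine, 14.23 with IFNγ and 14.22 with both agents, and none of them was called. Of these, 2 were higher and 5 lower in both backgrounds, against 25.8% and 37.3% of all probe sets. *Aif1*, which encodes Iba1, was higher by 0.56 and 0.57, whereas *P2ry12*, a purinergic receptor of resting microglia, was lower by 0.41 and 0.46 and *Fcrls* by 0.66 and 1.21. Against this, *Fcgr4*, an activating Fc receptor, had signals of 7.09 and 7.35 without IFNγ and of 10.45 and 10.63 with it and rose by 3.32 ± 0.07 on the log2 scale (SE, adjusted p = 0.000338). *Itgal*, an integrin of leukocytes, rose 3.28-fold and *Fcgr1*, the high-affinity Fc receptor, 1.77-fold, while the inhibitory *Fcgr2b* was lower by 0.31 and 0.58. Of 20 genes of homeostatic microglia, *Entpd1*, which degrades extracellular ATP, was called higher (2.37-fold) and *Gpr34*, a lysophospholipid receptor, lower. The call of *Fcgr1* was lost without any 1 array (adjusted p from 0.0516 to 0.12) and that of *Entpd1* without either IFNγ array (up to 0.0805). The part of cell numbers in these rises was not tested.

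Fewer genes were called lower than higher, 9 in the fit used here and 171 with the variance prior that follows the signal level. *Glycam1*, a mucin bound by L-selectin, had log2 signals of 10.38 in control and 10.59 with benztropine, against 9.15 with IFNγ and 9.10 with both agents, and fell by 1.36 on the log2 scale (SE 0.09, adjusted p = 0.00849). *Nav3*, a neuron navigator gene, stood at 9.70 on both arrays without IFNγ and at 8.70 and 8.69 with it, and fell by 1.01 (SE 0.07, adjusted p = 0.00931). *Gpr183*, the receptor that guides immune cells to oxysterols, fell by 1.00, *Ctla2a*, a cysteine protease inhibitor, by 0.87, *Car3*, a carbonic anhydrase, by 0.77, *Gpr34* by 0.69, *Ltc4s*, the synthase of leukotriene C4, by 0.67 and *Ntsr2*, the astrocytic neurotensin receptor, by 0.60. *Dcn*, which encodes the proteoglycan decorin of meningeal and fibroblast-like cells, stood at 7.29 and 8.41 on the control and benztropine arrays and at 6.39 and 6.99 on the IFNγ arrays. It fell by 1.16 (SE 0.14, adjusted p = 0.0481), by 0.90 in the control and 1.41 in the benztropine background, and the summed signal of 7 fibroblast markers, of which it is a member, differed by −0.21 and −0.32. Of the 9 genes, 8 had the larger difference in the benztropine background, and the IFNγ arrays lay below both others for each. Without 1 of the arrays the calls of *Glycam1* and *Nav3* held in all 4 fits, those of *Gpr183*, *Ctla2a* and *Car3* only in the fit without the IFNγ array, and those of the other 4 in none of them (for *Dcn*, adjusted p from 0.168 to 0.575). *Fcrls* (−0.94, adjusted p = 0.104), *F13a1*, *Lcn2*, *Ccl9*, *Steap4* and *Lox* were lower by more than 1.5-fold in the mean without a call.

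Below 1.5-fold limma called 0 probe sets in either direction. The median SE of the mean difference was 0.07 on the log2 scale and the smallest called difference 0.59. At an unadjusted p under 0.05 the counts below 1.5-fold were 688 higher and 906 lower. With a variance prior that follows the signal level all rises and falls together numbered 484 (3.33%) and 171 (1.18%), and those below 1.5-fold 240 and 156, at an adjusted p under 0.05, They are therefore described by the agreement of the 2 backgrounds. The probe sets with both differences at least 0.2 the same way were 417 higher (2.87%) and 443 lower (3.05%), and those with at least 0.2 in opposite ways were 46 higher and 26 lower in the control background.

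Agreement grew with size. Of the 189 probe sets higher by 0.4 to 0.585 in the control background, 91.0% were also higher in the benztropine background, with a median difference there of 0.30. Of the 299 higher by 0.3 to 0.4 it was 77.9%, with a median of 0.15, and of the 661 higher by 0.2 to 0.3 it was 69.1%, with a median of 0.08. For lower values the shares were 86.8% of 106 probe sets, 81.9% of 270 and 79.6% of 768, with medians of −0.31, −0.18 and −0.13. The median of all probe sets in the benztropine background was itself below 0, at −0.04. From a difference of 1 upward all 98 and 51 probe sets of the last 2 classes agreed. The 2 differences also disagreed less at high signals, by a median of 0.126 among the 2909 with the lowest signals and 0.0759 among the 2909 with the highest.

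**Figure D4:**
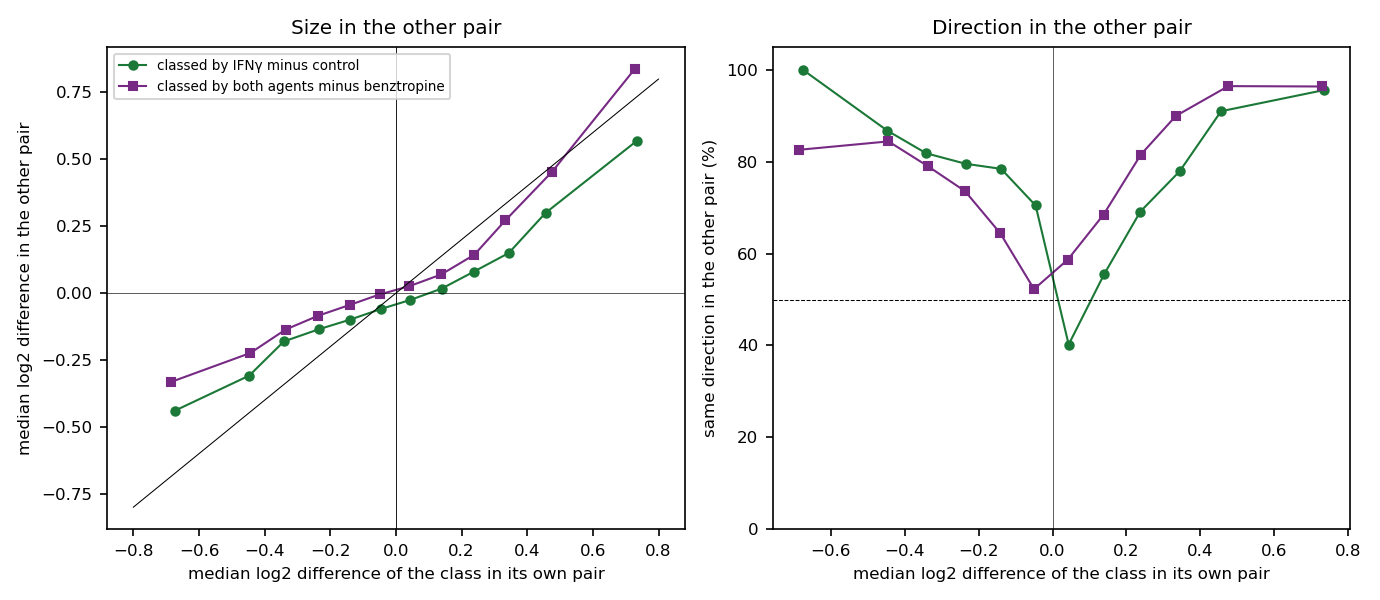
Probe sets with a difference under 1 were put in classes by their log2 difference in the control background (circles) or in the benztropine background (squares), and each class is drawn at its median there (horizontal) against its median difference in the other background (left) and the share with the same direction there (right, with 50% dashed). The median in the other background grows with the class, reaching 0.30 for the class of 0.4 to 0.585 in the control background, and the share with the same direction is lowest near 0.

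Among the small increases were regulators and immune genes. *Dhx58*, a modulator of RNA sensing, had signals of 7.42 and 7.57 without IFNγ and of 7.95 and 8.19 with it (0.58, adjusted p = 0.0594). *C1ra*, a serine protease of the C1 complex, was higher by 0.57 and 0.56 (adjusted p = 0.0552), *Mx2*, a dynamin-like antiviral gene, by 0.67 and 0.46, and *Alox5ap*, which hands arachidonic acid to 5-lipoxygenase, by 0.60 and 0.49. RefSeq annotates *Mx2* as a transcribed pseudogene. *Hcls1*, *Bank1* and *Pik3ap1*, adaptors of leukocyte signalling, were higher by 0.58, 0.57 and 0.56, and *Cers6*, a ceramide synthase, by 0.57. *Irf2*, an antagonist of *Irf1*, had 9.15 and 9.19 without IFNγ and 9.52 and 9.58 with it (0.38, adjusted p = 0.153). For all of these the IFNγ arrays lay above both others. In the Toll-like receptor list, where *Tlr9* rose 1.88-fold (a call lost without any 1 array, adjusted p from 0.0506 to 0.115), 4 of 12 members were in this class. So were 5 of 13 for co-stimulation and adhesion, 7 of 20 antiviral effectors and 4 of 12 complement genes, against 2.87% of all probe sets.

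Genes of astrocyte function, cell division, matrix and sterol synthesis had list medians below 0. At least 0.2 lower in both backgrounds, and below 1.5-fold, were 6 of 27, 4 of 29, 3 of 23 and 3 of 21 of them, against 3.05% of all probe sets, while 382 genes of that class were in no list. The counts that follow take decreases of any size. Of 27 astrocyte homeostasis genes above background, 20 were lower in both backgrounds and 0 higher in both, against 37.3% and 25.8% of all probe sets, with a median of −0.15, and 1 (*Ntsr2*) was called. *S100b*, a calcium-binding protein of astrocytes, had 7.03 and 7.01 without IFNγ and 6.59 and 6.34, below background, with it (−0.55, adjusted p = 0.113). *Sparcl1*, a secreted regulator of synapses, had 11.98 and 11.87 against 11.57 and 11.54 (−0.37, adjusted p = 0.171), and *Gja1*, the gap junction protein connexin 43, was lower by 0.23 and 0.36. *Gfap* was lower by 0.16 and 0.27, *Slc1a3*, a glutamate transporter, by 0.16 and 0.26, whereas *Apoe* and *Clu*, lipoprotein genes of astrocytes, differed by −0.0076 and −0.0062. The summed signal of the astrocyte markers was lower by 0.11 and 0.17.

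Of 29 cell cycle genes 20 were lower and 2 higher in both backgrounds, against 37.3% and 25.8% of all probe sets. Their median was −0.14 and none was called. *Mki67*, the proliferation marker, had 8.60 and 8.62 without IFNγ and 8.03 on both IFNγ arrays (−0.58, adjusted p = 0.052), and *Ccna2*, cyclin A2, was lower by 0.30 and 0.41, whereas *Cdkn1a*, the inhibitor p21, was higher by 0.36 and 0.25. Of 21 genes of sterol synthesis and export 13 were lower in both, against 37.3% of all probe sets, with a median of −0.15. *Fdps* and *Lss*, enzymes of the pathway, were lower by 0.32 and 0.34 and *Ch25h*, which makes 25-hydroxycholesterol, by 0.54 (adjusted p = 0.0655), while *Abcg1*, a sterol exporter, was higher by 0.71 (adjusted p = 0.0594). Of 23 matrix genes 18 were lower in both, against 37.3% of all probe sets, with a median of −0.13. *Fn1*, fibronectin, had 12.13 and 12.04 without IFNγ and 11.83 and 11.78 with it, and *Col1a1* was lower by 0.30 and 0.18, while *Col3a1*, another fibrillar collagen, differed by −0.0061. The medians of these 4 lists moved by at most 0.02 when the trend of the difference on the signal level was removed.

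Several other lists, but not all, had medians within 0.1 of 0. Outside that range were, among others, fibroblasts and pericytes (−0.175, 8 genes), matrix proteases and inhibitors (−0.106, 16), NF-kappaB signalling (0.104, 17) and endothelium (0.143, 2). Within it, the median was 0.01 for 28 genes of the respiratory chain, −0.0007 for 18 of glycolysis and 0.08 for 18 ribosomal proteins. It was 0.01 for 19 of the unfolded protein response and −0.01 for 12 reference genes. None of these 5 lists held a call. Of the ribosomal proteins, 12 were higher and 2 lower in both backgrounds, against 25.8% and 37.3% of all probe sets. *Eef1a1* and *Hprt*, used to normalize PCR, differed by 0.05 and 0.08, and *Gusb*, used for the same purpose, by −0.14. In the unfolded protein list the stress factors *Atf3* and *Ddit3* were higher by 0.41 and 0.42 (adjusted p = 0.142 and 0.146). Of 25 genes named for reactive astrocytes, *Cxcl10* alone was called. *Lcn2*, a siderophore-binding protein, was lower by 0.20 in the control and 1.15 in the benztropine background, where it started at 9.85 instead of 8.98, and *Serpina3n*, a protease inhibitor, was lower by 0.21 and 0.29.

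**Figure D5:**
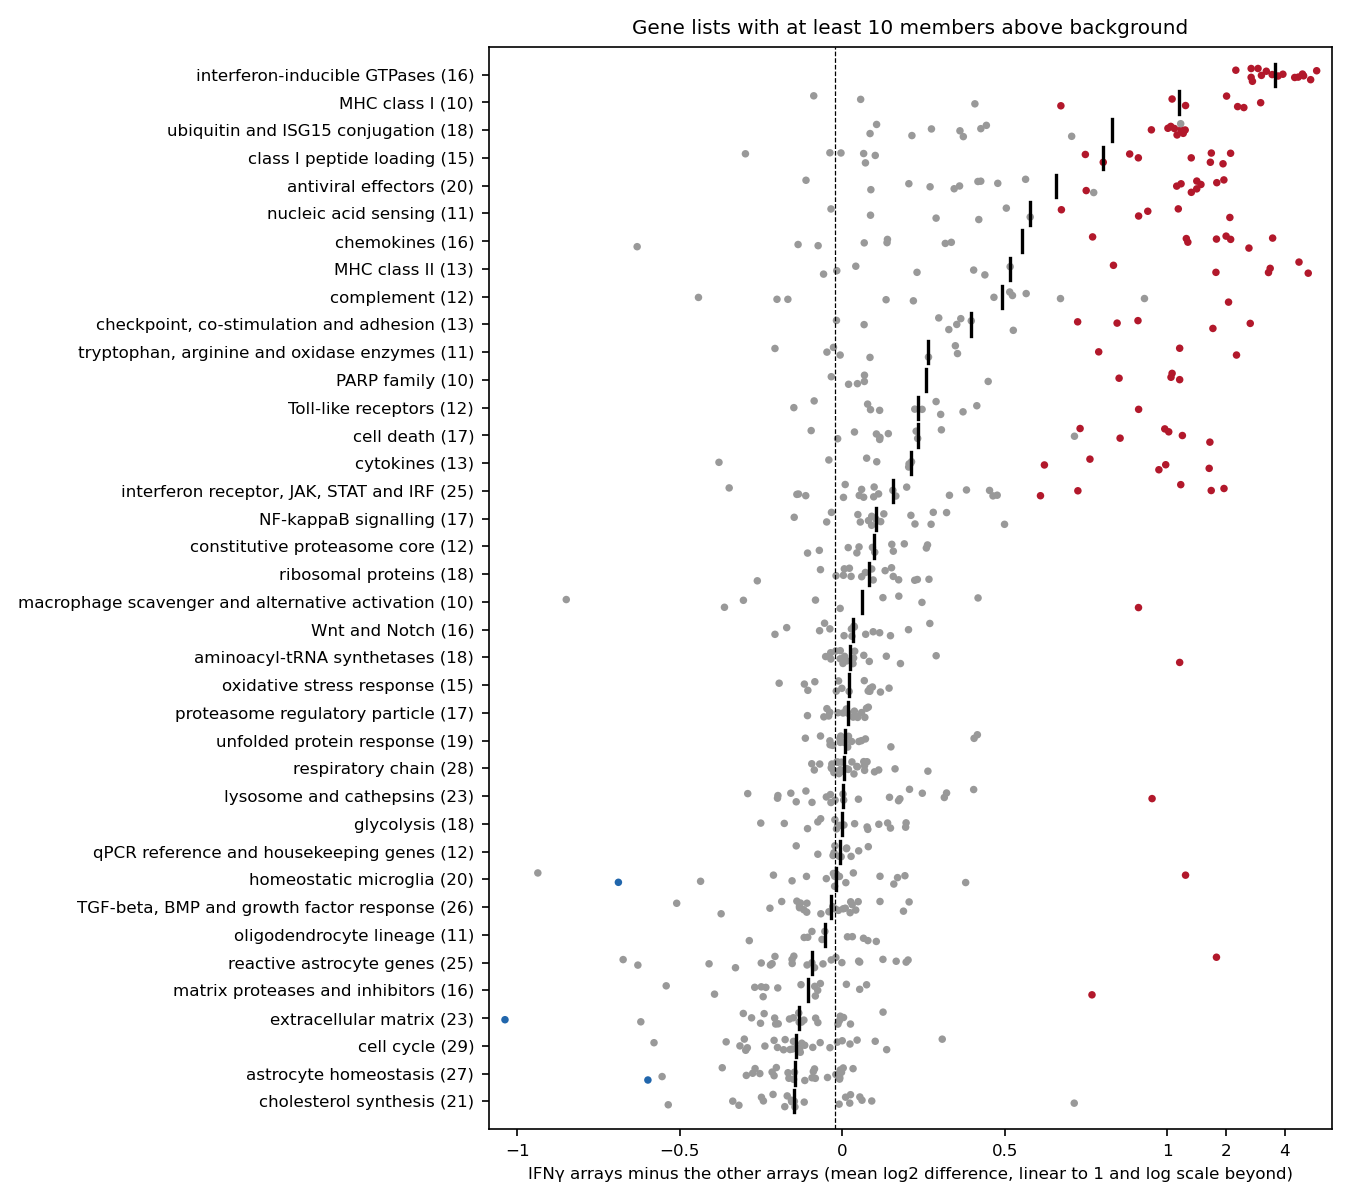
Each point is a gene above background, placed by its mean log2 difference between arrays with and without IFNγ (linear to 1, log scale beyond), in the gene lists with at least 10 such members (number in parentheses), with red for called higher, blue for called lower, grey for not called, a bar for the median of the list and a dashed line for the median of all probe sets (−0.02). The GTPases stand apart at a median of 3.58, and the lists of astrocyte homeostasis, cell cycle, matrix and sterol genes have medians from −0.15 to −0.13 with nearly all points grey.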

How the data were processed

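RNA of 4 groups was hybridised to Affymetrix Mouse Gene 2.0 ST arrays, 1 per group. The deposited log2 values were made by the authors in Expression Console with RMA (background correction, quantile normalization across arrays, probe set summary), so each array's values depend on the others. The array's genome build is not given in the sources used here. Having 4 arrays limits precision. Probe sets without a symbol were left out. limma 3.58.1 in R 4.3.3 fitted IFNγ and benztropine terms, assumed to add (1 residual degree of freedom), to 25341 probe sets with Benjamini-Hochberg adjustment. Error of an array and a non-additive response therefore enter the residual together. Steps were tested on simulated data. Members, lists and motifs were chosen with earlier results of these data known. Named are the 20 largest rises, calls lower with the next largest differences, 15 each way below 1.5-fold, 2 to 4 genes per list by size of difference, IFNγ signalling genes and genes of printed promoters. Other names were chosen after their values were seen. A gene with several probe sets was represented in the lists by the one with the highest mean signal. Alternatives were other variance priors, backgrounds, probe set choices, a loess correction and leaving out each array, without the benztropine term. Python 3.11.15 and pandas 2.3.3 were used.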

Additional observations from a re-analysis of the deposited data

Results flagged for a closer look

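Probe sets without a gene symbol were in no comparison, and a signal was found there. Of 5913 above background, 20 were at least 2-fold higher with IFNγ in both backgrounds and 2 were at least 2-fold lower. The largest mean difference was 3.80 on the log2 scale, in a probe set with signals of 9.07 in control, 9.30 with benztropine and 12.99 on both IFNγ arrays. The differences of the 2 backgrounds had a correlation of 0.273 over these probe sets, and 13 passed 1.5-fold in opposite directions, where the probe sets with a symbol had 0.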

How the results depend on the processing

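The number of arrays limits these results, and the calls depend on the variance prior and on which probe sets are fitted. Against 203 rises and 9 falls, limma called 484 and 171 with a variance trend and 464 and 170 when fitted only above background, and each held all 212 main calls. With probe sets without a symbol kept it called 13 and 0, all 13 among the 212. The falls were 14 with the loess trend removed, 5 with 1 value per symbol and 23 at an adjusted p under 0.10. Leaving out 1 array gave 103 to 152 rises and 2 to 6 falls, and 19 to 33 of 84 named calls were then lost, but none of the 20 largest rises. Below 1.5-fold the 0 calls each way became 240 higher and 156 lower with the trend, 220 and 156 when fitted only above background, 12 and 4 without a benztropine term, 12 and 3 with the loess trend removed, and 32 and 12 at an adjusted p under 0.10, and stayed at 0 without any 1 of the arrays. Small differences in both backgrounds numbered 694 higher and 771 lower without a filter on low signals, and 166 and 121 at a minimum of 0.3. No named gene changed direction under any setting. The benztropine term matches arrays by background, and without it 215 rises and 11 falls were called, 195 of the 212 among them. No paired analysis was possible by replicate number because the labels carry none. Another 46 rises and 2 falls were called below background.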

Other observations

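Genes for receptors of inhibitory transmission were lower too, a family chosen after its values were seen. Of 5 genes for subunits of the GABA-A receptor above background, 4 were lower in both backgrounds and 0 higher, against 37.3% and 25.8% of all probe sets, with a median log2 difference of −0.38 and no call. *Gabrg1*, a gamma subunit, had signals of 8.60 in control, 8.46 with benztropine, 8.08 with IFNγ and 8.03 with both agents (−0.47, limma adjusted p = 0.105). *Gabra2*, an alpha subunit, was lower by 0.45 and 0.42 and *Gabrb1*, a beta subunit, by 0.37 and 0.39 in the control and benztropine backgrounds, while *Gabrb2* differed by −0.04. Of 30 kinesin genes, motors that act in division and transport, 18 were lower and 4 higher in both backgrounds, to be read against the same shares, with a median of −0.12.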
